A study of Mus musculus with 10 samples.

Results

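The regions described here were the chromatin regions most open in group 2 innate lymphoid cells (ILC2s) of the small intestine (SI), measured by ATAC-seq, in which the Tn5 transposase cuts accessible DNA and the cut fragments are sequenced. They were chosen from the read counts. Each library was divided by its median-of-ratios size factor, and a region was kept if the lower of the SI libraries, as log2(normalised count + 1), lay at least 0.3 above the highest of the other 8 libraries. By this rule 1204 of 50039 regions (2.41%) were SI-open. The same rule, with the tissues exchanged, gave 2161 regions for bone marrow (BM), 936 for pancreas, 735 for lung and 712 for large intestine (LI). The number depended on the SI library that was the lower one at a region, since 2279 regions passed without SI replicate 1 and 4616 passed without SI replicate 2. The high SI values and every difference between SI and another tissue at these regions follow from the rule, so they are given below as values without a test.

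The study sorted ILC2s from BM, LI, lung, pancreas and SI of C57BL/6 males of 6 weeks to compare open chromatin between the tissues. The labels name no genetic change and no treatment for any group, and each tissue gave 2 libraries of 50000 cells, with cells of 16 mice pooled for BM, lung and pancreas and of 10 mice for LI and SI. BM cells were sorted as lineage-negative ST2+CD25+, and LI, lung and pancreas cells also by CD45 and CD127. SI ILC2s carry little ST2, the IL-33 receptor, and were sorted instead as lineage-negative CD45+CD127+KLRG1+ with intermediate Thy1, so the gate and the tissue cannot be told apart in SI. Between 10282987 (Pancreas 2) and 32797872 (Lung 2) reads per library fell in the table, with 18960309 and 26080061 for SI 1 and SI 2. In these bulk libraries, more cells with an open region and more accessibility per cell cannot be told apart.

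ILC2s are tissue-resident lymphocytes that depend on the transcription factors GATA3 and RORA and secrete IL-5, IL-13 and amphiregulin in the defence against worms and in allergy. In the small intestine they are known to respond to IL-25 from tuft cells, to neuropeptides and to lipid mediators, and to reside in the lamina propria beside IgA-secreting plasma cells. Open regions away from gene starts are often enhancers, where transcription factors such as RUNX, IRF, AP-1 and GATA proteins bind short motifs.

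Sequence was read from the reference genome (RefSeq, build GRCm38.p6) at the central 200 bp of the 12 SI-open regions with the largest margin and of 4 more that lay nearest to genes of the SI list described below. The Fkbp11 region, in a 3′ UTR, is not shown. Of the remaining 15 windows, 5 held a RUNX match (TGTGGTT), 3 a GATA match (AGATAA), 3 an AP-1 match (TGANTCA), 2 an IRF match (a pair of GAAA repeats spaced by 2 bases) and 1 a POU match (ATGCAAAT), on either strand, and 6 held none of these. Shown are the window of the region with the largest margin and the 9 windows with a match, on the plus strand with the matches in capitals.
Dtx1, intron 2, chr5:120709016-120709215: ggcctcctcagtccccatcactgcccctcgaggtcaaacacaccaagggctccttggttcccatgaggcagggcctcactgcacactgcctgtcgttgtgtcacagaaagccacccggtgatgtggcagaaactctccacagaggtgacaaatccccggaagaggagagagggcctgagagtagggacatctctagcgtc
Atp8a2, intron 1, chr14:60049759-60049958: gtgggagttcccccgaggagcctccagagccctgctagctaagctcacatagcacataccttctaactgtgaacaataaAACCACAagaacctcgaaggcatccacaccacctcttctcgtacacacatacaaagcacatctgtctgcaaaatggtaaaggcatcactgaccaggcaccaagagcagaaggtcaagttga
Rpl37rt, in intron 6 of Sppl3, chr5:115084922-115085121: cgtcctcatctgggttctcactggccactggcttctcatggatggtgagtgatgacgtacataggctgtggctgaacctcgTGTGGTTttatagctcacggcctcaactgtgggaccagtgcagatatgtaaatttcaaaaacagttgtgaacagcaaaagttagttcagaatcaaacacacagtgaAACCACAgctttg
Gzma, promoter, cut off at the transcript start, chr13:113100982-113101155: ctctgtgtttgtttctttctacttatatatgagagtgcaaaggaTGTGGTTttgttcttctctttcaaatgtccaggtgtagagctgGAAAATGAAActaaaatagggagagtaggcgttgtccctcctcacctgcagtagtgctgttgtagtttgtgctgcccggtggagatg
Thada, intron 17, chr17:84431950-84432149: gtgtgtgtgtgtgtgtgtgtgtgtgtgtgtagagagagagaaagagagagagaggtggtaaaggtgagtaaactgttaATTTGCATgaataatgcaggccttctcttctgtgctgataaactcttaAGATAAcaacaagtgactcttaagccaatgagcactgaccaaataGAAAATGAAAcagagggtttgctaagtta
Itpr3, intron 1, chr17:27066076-27066275: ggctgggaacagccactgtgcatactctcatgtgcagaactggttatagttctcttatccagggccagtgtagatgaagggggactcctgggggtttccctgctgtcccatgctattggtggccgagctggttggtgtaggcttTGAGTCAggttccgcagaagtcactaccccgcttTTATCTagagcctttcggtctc
Kcnma1, in intron 6 of Lrmda, chr14:23031324-23031523: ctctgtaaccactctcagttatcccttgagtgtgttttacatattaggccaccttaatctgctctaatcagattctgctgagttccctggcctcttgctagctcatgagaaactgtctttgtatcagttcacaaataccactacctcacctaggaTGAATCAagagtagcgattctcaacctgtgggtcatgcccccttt
Mctp2, intergenic, chr7:72350013-72350212: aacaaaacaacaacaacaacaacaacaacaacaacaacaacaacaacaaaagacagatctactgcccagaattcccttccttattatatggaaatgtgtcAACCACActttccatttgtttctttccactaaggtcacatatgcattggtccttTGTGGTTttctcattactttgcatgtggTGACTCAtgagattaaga
Mras, intron 1, chr9:99423452-99423651: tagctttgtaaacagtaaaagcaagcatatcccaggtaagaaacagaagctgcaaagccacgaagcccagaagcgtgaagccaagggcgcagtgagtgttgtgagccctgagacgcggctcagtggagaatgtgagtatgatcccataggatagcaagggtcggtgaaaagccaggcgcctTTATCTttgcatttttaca
Ret, intron 1, chr6:118189844-118190043: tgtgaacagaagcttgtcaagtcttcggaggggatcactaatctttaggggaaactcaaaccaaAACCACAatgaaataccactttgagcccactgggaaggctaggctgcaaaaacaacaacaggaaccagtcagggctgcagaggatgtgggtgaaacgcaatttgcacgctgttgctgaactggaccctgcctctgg

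The region with the largest margin lay in intron 2 of Dtx1, 2.55 kb from its start (chr5:120708866-120709366). Dtx1 encodes Deltex1, a ubiquitin ligase that modifies Notch signalling. Its normalised counts were 171 and 214 in SI, 23.7 and 24.9 in LI, 15.5 and 10.2 in BM, 12.5 and 7.65 in lung, and 9.51 and 33.6 in pancreas. The lower SI library was 4.97 times the highest other library on the value + 1 scale. Both SI libraries stood clear of the rest, and the second highest tissue differed by replicate, since Pancreas 2 exceeded both LI libraries while Pancreas 1 was below them.

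Atp8a2, which encodes a phospholipid flippase, followed with a region in its intron 1 (chr14:60049609-60050109). Counts there were 98.8 and 78.7 in SI, 20.3 and 17.2 in LI, 2.91 and 0.93 in BM, 14.9 and 2.19 in lung, and 9.51 and 4.20 in pancreas. LI was second, and the highest library outside the intestine was Lung 1, just below LI. Among the 4 other tissues, LI exceeded BM by a log2 fold change of 3.24 (edgeR adjusted p = 0.015).

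Gzma, the gene of the granule protease granzyme A, held the only promoter region among the 12, centred 75 bp upstream of its transcript start (chr13:113100806-113101306). Its counts were 120.0 and 122 in SI, 32.2 and 34.3 in LI, 23.3 and 19.5 in BM, 18.8 and 6.01 in lung, and 11.9 and 21.0 in pancreas. The SI libraries nearly coincided, and no other library exceeded 34.3. Its window holds a RUNX match and an IRF match on the strand shown.

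A region in intron 17 of Thada (chr17:84431800-84432300) had counts of 260.1 and 210.3 in SI, 61.0 and 45.5 in LI, 16.5 and 26.0 in BM, 7.84 and 6.56 in lung, and 4.75 and 33.6 in pancreas. It is the window above that holds POU, GATA and IRF matches together. In intron 1 of Itpr3, which encodes a calcium channel of the endoplasmic reticulum, counts were 399 and 550.2 in SI, 119 and 104 in LI, 40.8 and 24.2 in BM, 27.4 and 13.1 in lung, and 72.5 and 54.6 in pancreas (chr17:27065904-27066448). LI was also above BM there (log2 fold change 1.8, edgeR adjusted p = 0.0019) and above lung (2.5, adjusted p = 0.0006). The Itpr3 region thus had the order SI, LI, pancreas, with BM and lung lowest and overlapping each other.

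The other 7 regions of the 12 had SI counts between 81.4 and 187, and their highest other library reached 22.3 to 49.5. They lay in intron 16 of Epb41 near Tmem200b, in intron 6 of Sppl3 near Rpl37rt, in intron 3 of Lsm1 near Star, in intron 6 of Lrmda with Kcnma1 as the nearest coding gene, in the 3′ UTR of Arf3 near Fkbp11, upstream of Mctp2 and in coding exon 2 of Dcaf7. The start of Kcnma1 was 973 kb from its region. Star encodes the protein that brings cholesterol into mitochondria, and Kcnma1 a potassium channel. Of these, the Star region was the lowest outside SI, at 6.01 to 22.3 in the 8 other libraries. In all 12 regions the nearest gene was taken by the distance to a transcript start, which does not show that the region acts on that gene.

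**Figure D1:**
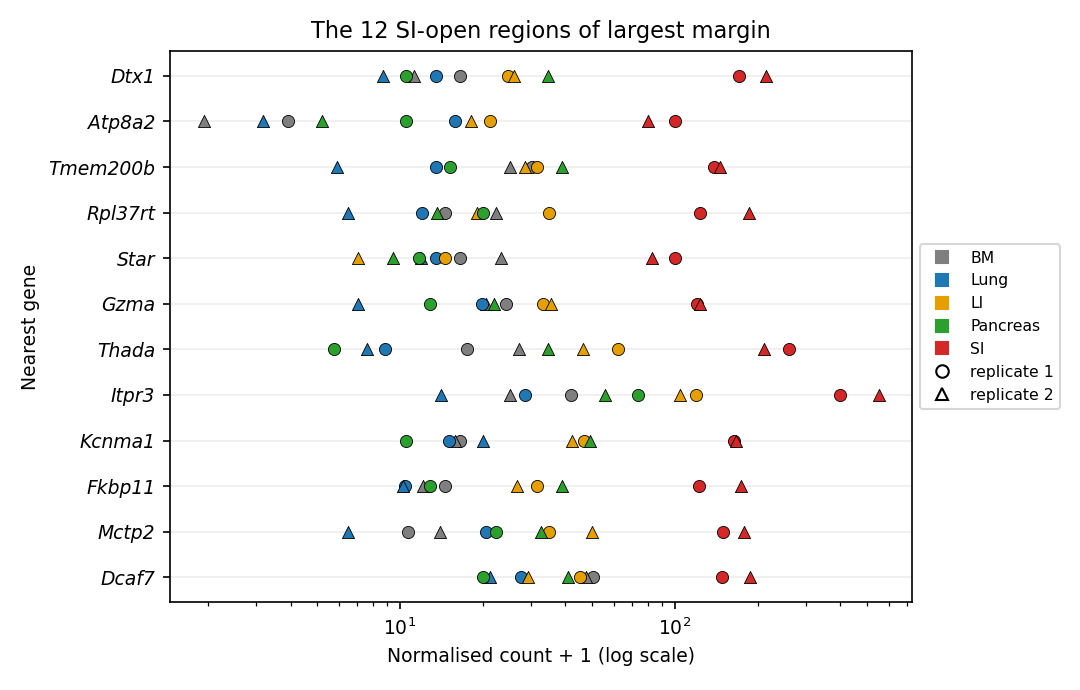
Normalised count + 1 on a log axis for the 12 SI-open regions of largest margin, with 1 row per region named by its nearest gene, 1 colour per tissue and circles and triangles for replicates 1 and 2. The red SI symbols lie right of all others in every row, by the rule, and the second highest symbol is LI in some rows and Pancreas 2 or BM in others.

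Across the 1204 regions the median normalised count was 149 in SI 1 and 139 in SI 2, against 67.8 and 69.5 in LI, 41.6 and 54.6 in pancreas, 43.7 and 41.9 in BM, and 43.1 and 35.5 in lung. Over all 50039 regions the libraries had medians of 128 to 153, so SI-open regions were ordinary in height in SI and low in the other tissues. They took 1.32% and 1.27% of the SI reads and 0.363% to 0.589% of the reads of each other library. The mean SI count of a region ran from 43.5 to 1343, with a median of 147. On the log2 scale the median region was 1.03 below SI in LI, 1.47 in pancreas, 1.61 in BM and 1.74 in lung, while the SI replicates differed by a median of 0.29.

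**Figure D2:**
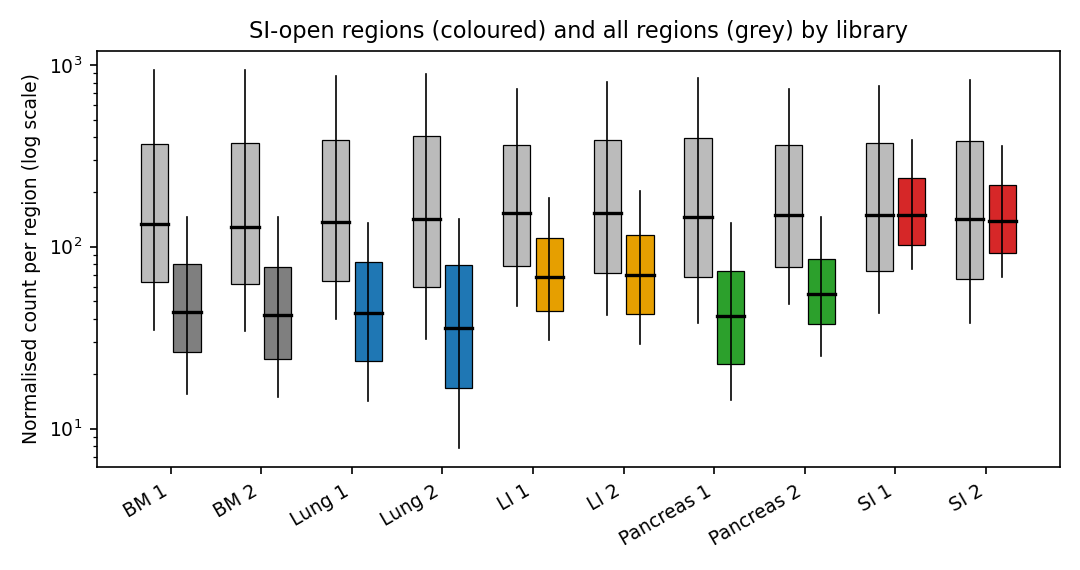
Normalised count per region on a log axis in each library, for the 1204 SI-open regions (coloured by tissue) and all 50039 regions (grey). Boxes span the quartiles, thick lines mark the medians and thin lines reach from the 10th to the 90th percentile. Coloured medians are 149 and 139 in SI and 35.5 to 69.5 elsewhere, with LI highest among the rest.

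SI 1 was the lower SI library at 508 of the regions and SI 2 at 696. SI 1 was at least 2-fold above SI 2 at 64 regions and SI 2 at least 2-fold above SI 1 at 7. Together these were 5.90% of the SI-open regions, while 9.001% of all regions had such a gap. The rule acts on the lower SI library and so disfavours large gaps. These shares therefore do not measure how well the SI replicates agree. The margin had a median of 0.51, an upper quartile of 0.72 and a maximum of 2.31, and it was at least 0.5 at 625 regions and at least 1 at 102. At the threshold the values changed gradually. Just inside it lay regions near Ccdc40 (371 and 337 in SI, 191 to 274 elsewhere), Rap1b (176 and 176, 27.9 to 142), Ramac (176 and 228, 53.0 to 142), Hap1 (297 and 202, 72.1 to 164) and Bcl2l14 (186 and 44.1, 7.10 to 35.6). Just outside it lay regions near Etv6 (128 and 71.9, 16.4 to 58.2), Rnf19b (127 and 107, 70.6 to 86.3), Ankrd13d (451 and 393, 244 to 319), Nfatc1 (107 and 90.9, 39.9 to 73.7) and Ucp2 (180.4 and 215, 90.2 to 146). A further 3412 regions passed in SI 1 alone and 1075 in SI 2 alone, and these were not counted.

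The rule set a ceiling on the 8 libraries outside SI but did not use their order. The 6 pairs of these tissues were therefore compared at each region with edgeR's quasi-likelihood test. Its p-values were adjusted over all 49981 regions with a count. The ceiling keeps out regions that are high in any of these tissues, which can lower the shares called. The shares of all regions, given beside them, carry no such ceiling. LI was the tissue that most often stood above others. LI exceeded BM at 322 SI-open regions (26.7%, against 18.3% of all regions) and was below it at 1 (0.0831%, against 12.6%). Compared with lung, LI was higher at 289 (24.0%, against 8.18%) and lower at 0 (against 2.72%), and compared with pancreas it was higher at 78 (6.48%, against 2.01%) and lower at 0 (against 1.25%). For the counts of 0, an unadjusted p under 0.05 gave 1 region lower in LI than in lung and 2 lower than in pancreas, and DESeq2 gave 0 and 1 after adjustment. The median log2 fold change of LI at the SI-open regions was 0.58 over BM, 0.68 over lung and 0.45 over pancreas, with medians of 0.02, 0.01 and 0.01 over all regions.

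Differences among BM, lung and pancreas went both ways. BM was higher than lung at 93 SI-open regions (7.72%, against 7.56% of all regions) and lower at 86 (7.14%, against 11.5%). BM was higher than pancreas at 44 (3.65%, against 9.89%) and lower at 102 (8.47%, against 14.3%). Lung was higher than pancreas at 21 (1.74%, against 1.62%) and lower at 66 (5.48%, against 4.2%). At least 1 of the 6 pairs differed at 540 regions (44.9%), a share near the 44.4% of all regions. With library size alone as the scaling, the median of all regions moved to -0.17 for BM against lung and 0.24 for lung against pancreas, and the counts became 64 higher and 138 lower in the first pair and 47 higher and 37 lower in the second.

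LI was above BM, lung and pancreas together at 33 SI-open regions (2.74%, against 1.05% of all regions). BM was above the 3 others at 0 of them (against 2.71%), and lung and pancreas also at 0 (against 0.464% and 0.26%). The ceiling of the rule makes such regions rarer in the set than among all regions. At an unadjusted p under 0.05 in each pair the edgeR counts were 133 for LI, 2 for BM, 0 for lung and 0 for pancreas, and DESeq2 gave 49, 0, 0 and 0 after adjustment. The highest library outside SI was an LI library at 709 SI-open regions (58.9%), against 26.1% of all regions. LI and SI share the pools of 10 mice and the other tissues the pools of 16. Per the study's methods, LI and SI tissue was also shaken with dithiothreitol and EDTA and digested for longer than lung and pancreas, while BM was flushed. Pool size and cell isolation cannot be told apart from the intestinal site.

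These counts depended on single libraries. For LI against BM, 181 regions were called without BM replicate 1, 187 without BM replicate 2 and 199 without LI replicate 2. For LI against lung the counts were 58 without Lung replicate 2, 156 without LI replicate 1 and 153 without LI replicate 2, and for LI against pancreas 6 without Pancreas replicate 1, 18 without LI replicate 2, 46 without LI replicate 1 and 48 without Pancreas replicate 2. Between BM and lung 179 regions were called in all, and 89 without BM replicate 1, 85 without BM replicate 2 and 64 without Lung replicate 2. Between BM and pancreas the count fell from 146 to 59, 63 and 54 without BM replicate 1, BM replicate 2 and Pancreas replicate 2, and between lung and pancreas from 87 to 4, 48 and 12 without Lung replicate 2, Pancreas replicate 1 and Pancreas replicate 2. The balance of directions also turned. Without Lung replicate 2, BM was higher than lung at 15 regions and lower at 49, and lung was higher than pancreas at 3 and lower at 1. Without Pancreas replicate 2, BM was higher than pancreas at 29 and lower at 25, and lung was higher than pancreas at 9 and lower at 3.

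**Figure D3:**
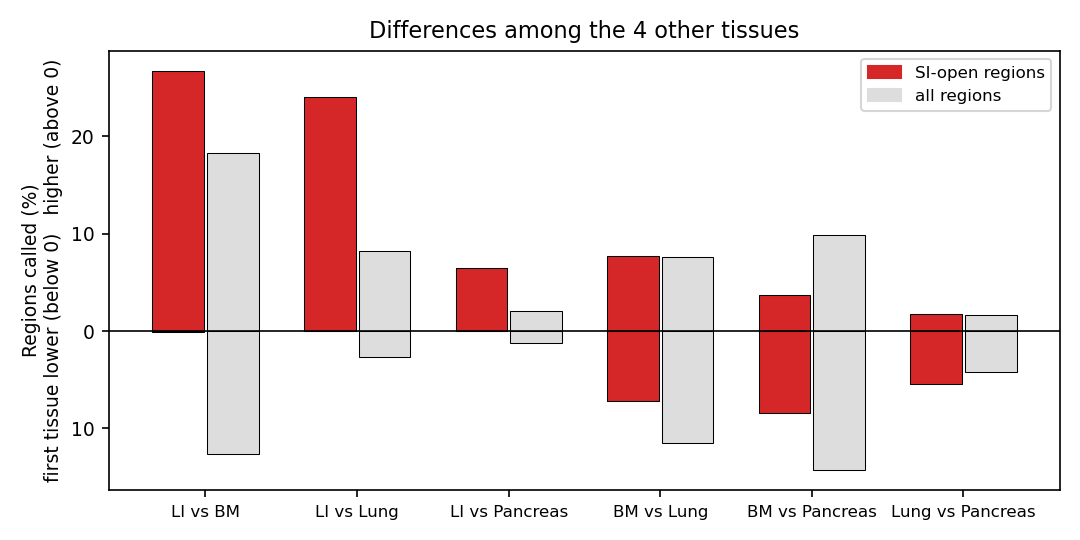
Share of regions called between each pair of the 4 tissues outside SI (edgeR adjusted p under 0.05), with shares higher in the first tissue above 0 and shares lower in it below 0, for SI-open regions (red) and all tested regions (grey). Red bars reach 26.7% and 24.0% for LI above BM and lung and are at or near 0 for LI below them.

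SI-open regions were mostly away from promoters. A promoter was taken as 1000 bp upstream to 100 bp downstream of a curated RefSeq transcript start, and 65 of the 1204 regions were promoters (5.40%, Wilson 95% interval 4.26% to 6.82%), against 19.2% of all regions. Of the rest, 777 (64.5%) lay within genes and 362 (30.1%) between them, against 48.1% and 32.7%, and introns alone took 58.8%, against 41.4%. The promoter share was 3.93% in the LI-open, 4.76% in the lung-open and 4.91% in the pancreas-open regions and 19.6% in the BM-open regions, and a low share was thus found in LI, lung and pancreas too. The intragenic share was 62.4% in lung-open, 51.8% in pancreas-open, 47.3% in LI-open and 47.1% in BM-open regions. Without SI replicate 2 the promoter share of the regions that passed was 13.4%.

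The median distance to the start of a coding transcript was 19534.5 bp, against 12702 bp for all regions, 35962 bp for LI-open, 29122 bp for pancreas-open and 24701 bp for lung-open regions. Regions more than 50 kb from a start made up 21.3%, close to the 20.9% of all regions and below the 42.1% of LI-open regions. The median GC content of SI-open regions was 47.7% (all regions 49.8%), and 12.2% of the median region was repeat-masked (all regions 9.49%). Outside promoters the median distance was 21552 bp in SI-open and 19585 bp in all regions, and the median GC content 47.5% and 48.1%. There, 22.4% of SI-open and 25.5% of all regions lay more than 50 kb from a start. Many SI-open regions were narrow, as 58.9% had the smallest width in the table, 500 bp, against 23.6% of all regions. Summed over the 10 libraries, the median region held 758 reads, against 1555.

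The 1204 regions were spread unevenly over the chromosomes. Chromosome 11 held 172 of them, 4.62% of its 3722 regions, followed by chromosomes 19 (3.36%), 5 (3.30%) and 15 (3.04%), and chromosomes 7 (1.598%), 18 (1.25%) and X (0.776%) had the lowest shares above 0. On chromosome 11 the BM-open, LI-open, lung-open and pancreas-open regions made up 4.16%, 0.564%, 1.10% and 1.69%, against 4.32%, 1.42%, 1.47% and 1.87% of the whole table. Over all regions of chromosome 11, SI-open or not, SI exceeded the mean of the other tissues by a median of 0.22 on the log2 scale, the highest value of any chromosome.

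Motifs were searched as exact letters on both strands over the whole region. IRF matches stood in 203 SI-open regions (16.9%), against 8.16% of all regions and 5.41% to 8.44% of the regions most open in each other tissue. IRF proteins are the transcription factors of interferon responses and, with IRF4, of lymphocyte activation. In the central 200 bp the shares were 9.63% and 2.90%. Among regions of 500 bp width the IRF shares were 18.1% in SI-open and 8.71% in all such regions, and among non-promoter regions 16.8% and 8.72%.

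RUNX matches stood in 351 SI-open regions (29.2%), against 18.8% of all, 24.6% of LI-open, 24.4% of lung-open, 19.0% of pancreas-open and 14.9% of BM-open regions. RUNX1 and RUNX3 are the family members used by lymphocytes. POU matches, the octamer bound by OCT1 and OCT2, stood in 91 regions (7.56%), against 3.30% of all and 1.76% to 5.45% of the other tissues' regions, and in 16.7% of the 102 regions with a margin of at least 1. IRF and RUNX matches occurred together in 48 regions, and 46.3% held an IRF, RUNX or POU match, against 27.6% of all regions.

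GATA matches stood in 27.2% of SI-open and 27.1% of all regions, in 27.7% and 30.7% of those outside promoters and in 28.1% and 31.3% of those of 500 bp width. They were less common than in BM-open (45.0%), pancreas-open (44.3%), LI-open (32.6%) and lung-open (31.6%) regions. AP-1 matches stood in 21.2% of SI-open regions, against 25.1% of all regions. The AP-1 shares were 61.4% in LI-open, 43.7% in pancreas-open, 28.2% in lung-open and 15.1% in BM-open regions. CTCF core matches (AGGGGGCG) were at 3.16%, against 6.97%, with 2.81% and 4.57% outside promoters and 1.69% and 2.99% at 500 bp width. The AHR core (TGCGTG) stood in 15.9%, against 15.5% of all regions and 9.97% to 12.96% of the other tissues' regions, and the shares were 15.7% and 13.6% outside promoters and 14.1% and 10.6% at 500 bp width. The shares in SI-open and all regions were also set side by side for E-box (CAGGTG, 39.8% against 36.1%), KLF (GGGTGTG, 13.5% against 15.3%), RBPJ (GTGGGAA, 10.7% against 11.5%) and the ROR site (TAGGTCA, 5.56% against 5.66%). A match is a description of the letters, and no binding was measured.

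**Figure D4:**
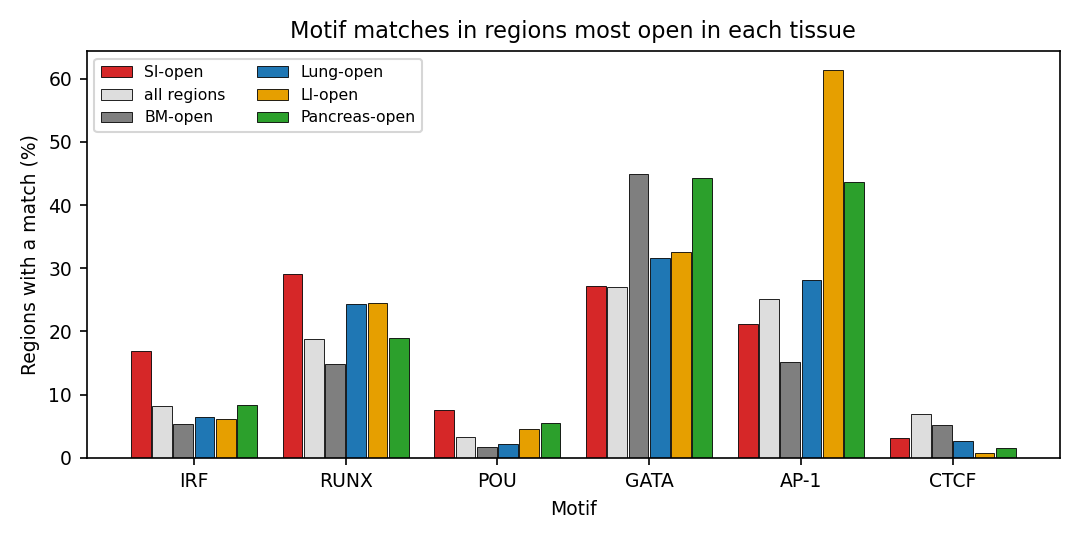
Share of regions with at least 1 exact match, in percent, for 6 motifs in SI-open regions, all regions and the regions most open in each other tissue by the same rule. SI-open bars are the highest of the 6 for IRF (16.9%), RUNX (29.2%) and POU (7.56%), whereas LI-open regions lead for AP-1 (61.4%) and BM-open regions for GATA (45.0%).

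SI-open regions with a POU match had median counts of 163 and 140.4 in SI and 33.0 and 27.9 in BM, and those without it 148 and 139 in SI and 44.6 and 43.7 in BM. The median log2 difference from SI was 2.21 in BM and 2.41 in lung with the POU match, and 1.54 and 1.70 without it. The gap was smaller in LI (1.31 with and 1.02 without the match) and in pancreas (1.59 and 1.46). With a CTCF core match the SI medians were 275 and 211, against 147 and 138 without it. For CTCF the median log2 difference from SI was 0.999 in BM and 1.02 in lung with the match, and 1.63 and 1.76 without it. In LI it was 0.804 with and 1.04 without the match, and in pancreas 1.05 and 1.49. At the regions where LI exceeded BM, AP-1 matches stood in 25.5% of the 322 SI-open regions, against 49.0% of all 9133 such regions in the table, and RUNX matches in 33.9% against 27.2%. No test of these shares was made.

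The 1204 regions lay nearest to 965 genes, 6.59% of the 14639 genes nearest to any region, and 159 genes had at least 2 of them. The numbers of genes that follow come from lists of known function, set beside this share without a test. A gene with more regions has more occasions to hold an SI-open one, so shares of genes depend on regions per gene. The SI-open regions among each list's regions are therefore counted too, to be set beside 2.41% of the table. In the list of genes that single-cell RNA sequencing had put higher in SI ILC2s than in ILC2s of each other tissue, 14 of the 36 genes with a region (38.9%) were nearest to an SI-open region. Of the 237 regions nearest to these genes, 28 (11.8%) were SI-open and 2 were closed in SI by the mirrored rule, against 2.41% and 1638 of 50039 in the table. In the list of genes lower in SI ILC2s, 3 of 30 genes (10.0%) had an SI-open region, and 63 of their 236 regions were closed in SI. RNA was not analysed here.

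The 14 genes were Arap2, Atp8a2, Cd160, Cybb, Deptor, Dnaja1, Epas1, Gzma, Mras, Nrip1, Osgin1, Pde1c, Ret and Tgm2. At Mras, a small GTPase gene, a region in intron 1 (chr9:99422998-99424106) had 581 and 709.6 in SI, 217 and 227 in LI, 116 and 153 in BM, 135 and 124 in lung, and 137 and 174 in pancreas. Pde1c encodes a phosphodiesterase of cyclic nucleotides, and its intron 1 region (chr6:56367851-56368460) had 764 and 756 in SI, 276 and 361 in LI, 75.7 and 101 in BM, 45.5 and 42.1 in lung, and 118 and 67.2 in pancreas. The Pde1c region was graded between the intestinal tissues, with LI above BM by 1.88 (edgeR adjusted p = 0.00012), above lung by 2.89 (adjusted p = 5.1e-05) and above pancreas by 1.78 (adjusted p = 0.0027) on the log2 scale.

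Ret encodes the receptor for GDNF family ligands from glia, and its intron 1 region (chr6:118189694-118190194) had 127 and 121 in SI, 59.3 and 35.2 in LI, 30.1 and 29.8 in BM, 12.5 and 3.28 in lung, and 30.9 and 27.3 in pancreas. Lung was lowest there, below LI by 2.63 (edgeR adjusted p = 0.0056) and below BM by 1.97 (adjusted p = 0.019). Upstream of Cybb, which encodes a subunit of the phagocyte NADPH oxidase, a region (chrX:9470751-9471251) had 123 and 125 in SI, 17.0 and 23.2 in LI, 41.7 and 42.8 in BM, 22.7 and 27.3 in lung, and 54.7 and 21.0 in pancreas. LI was not the second highest tissue at Cybb, in contrast to Mras, Pde1c and Ret. Near the 3 genes of the lower list, margins were 0.86, 0.45 and 0.33, with counts of 442 and 444 in SI near Dusp1 (76.5 to 244 elsewhere), 1376 and 1311 near Cd52 (720.2 to 959.8) and 78.7 and 58.3 at 74.6 kb from Thy1 (4.92 to 46.2).

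Cytotoxic and NK-type genes had SI-open regions at 5 of 17 genes, among them Gzma above. Gzmk, a neighbouring granzyme gene, had 152 and 141 in SI and 7.44 to 62.6 in the other libraries at a region 2.66 kb upstream of its start (chr13:113183376-113183876). Cd160 had 418 and 436 against 128 to 283 in intron 1, Cd244a 115 and 113 against 35.6 to 72.1, and Fasl 271 and 189.9 against 107 to 151. LI exceeded BM at the Gzmk region by 2.25 (edgeR adjusted p = 0.012) and at the Cd160 region by 0.83 (adjusted p = 0.017). Of the 81 regions nearest to the 17 genes, 7 were SI-open (8.64%) and 0 were closed in SI, against 1638 of 50039 closed in the table. Few closed regions are thus to be found in any list of this size, and hypoxia and heat shock genes also had 0 of 83.

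Type 2 cytokine and effector genes were represented by Il10, Il13, Il9, Ccl5 and Il6, 5 of 16 genes, with 11 of their 144 regions SI-open (7.64%) and 9 closed. Il10, the gene of an inhibitory cytokine, had 5 of its 11 regions in the set, spread over 23.3 kb. In its intron 4 (chr1:131022562-131023092) counts were 594 and 184 in SI, 132 and 94.4 in LI, 9.70 and 21.4 in BM, 67.4 and 60.7 in lung, and 40.4 and 31.5 in pancreas. In intron 3 (chr1:131021396-131022040) they were 380.0 and 216 in SI, and 26.0 to 129 elsewhere. SI 1 exceeded SI 2 at 3 of the 5 regions and was below it at the others, so the Il10 regions were uneven between the SI libraries.

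Il13, the gene of an ILC2 signature cytokine, had a region 6.64 kb beyond its start (chr11:53627797-53628329) with 326 and 303 in SI, 168 and 198 in LI, 191 and 185 in BM, 165 and 202 in lung, and 122 and 122 in pancreas. The 8 other libraries were close together here. A second and taller Il13 region (chr11:53626708-53627307) had 799 and 1079 in SI, 422 and 647 in LI, 78.6 and 59.5 in BM, 269 and 442 in lung, and 233 and 176 in pancreas, with BM lowest. A region 13.4 kb upstream of Il9 (chr13:56495382-56495991) had 387 and 544 in SI, 202 and 257 in LI, 169.8 and 277 in BM, 24.3 and 13.7 in lung, and 19.0 and 50.4 in pancreas. LI exceeded lung by 3.65 (edgeR adjusted p = 8.9e-05) and BM exceeded lung by 3.57 (adjusted p = 2.3e-05), so this region was shared by SI, LI and BM. Near Ccl5, a chemokine gene, counts were 614 and 464 in SI and 116 to 261 elsewhere. At 76.2 kb from the start of Il6 they were 66.2 and 132 against 11.2 to 37.3.

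Among cytokine receptors, 2 of 27 genes had such a region, and of their 221 regions 3 (1.36%) were SI-open and 30 were closed in SI. Near Il9r, the IL-9 receptor gene, it lay 95.5 kb from the start (chr11:32104541-32105041) and had 176 and 182 in SI, 33.9 and 68.7 in LI, 10.7 and 9.30 in BM, 21.2 and 12 in lung, and 9.51 and 44.1 in pancreas. The Il10rb region had 387 and 136 against 33.7 to 109. In IL-25 and NF-kappaB signalling only Nfkbiz, of 15 genes, had 1 of 173 regions in the set, where 9 were closed, with 186 and 182 in SI, 93.2 and 123 in LI and 13.6 to 63.0 in the rest. At this region LI exceeded BM by 2.73 (edgeR adjusted p = 7.2e-05) and lung by 2.31 (adjusted p = 0.00061).

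ILC2 transcription factor genes had SI-open regions at 6 of 19 genes. Of the 532 regions nearest to the 19 genes, 9 were SI-open (1.69%, below the 2.41% of the table) and 23 were closed in SI. Runx3, a RUNX family factor of lymphocytes, had 4 of its 21 regions in the set. Its region of largest margin, in intron 1 (chr4:135136571-135137071), had 111 and 204 in SI, 45.8 and 33.5 in LI, 36.9 and 47.4 in BM, 12.5 and 8.74 in lung, and 27.3 and 42.0 in pancreas. Lung was below BM there by 1.99 (edgeR adjusted p = 0.0071). At 106 kb from the start of Lmo4, a LIM-domain cofactor gene, counts were 169 and 197 in SI and 66.1 and 78.1 in LI. They were 10.4 to 27.3 in the other tissues, and LI exceeded all 3 of them (log2 fold changes of 1.55 to 2.47, edgeR adjusted p of 0.001 to 0.046).

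Nfil3, needed for innate lymphoid progenitors, had 82.5 and 115 in SI against 18.6 to 46.3 at a region 43.4 kb from its start. Runx1 had 74.9 and 107 against 5.46 to 42.9 at a region 298 kb away, and Tcf7, which encodes TCF1, 129 and 83.4 against 23.3 to 52.6. In intron 6 of Ikzf2, which encodes Helios, counts were 265 and 517 in SI, 120.4 and 197 in LI, 28.1 and 40.0 in BM, 85.5 and 81.4 in lung, and 19.0 and 50.4 in pancreas. At Ikzf2 LI exceeded BM by 2.26 (edgeR adjusted p = 0.00097) and pancreas by 2.32 (adjusted p = 0.01). No gene of the Ahr pathway list other than Ahr itself, 1 of 10 genes, was nearest to an SI-open region. That region, 106 kb from the Ahr start, had 113 and 106 in SI, 52.6 and 72.9 in LI and 15.5 to 34.9 in the rest.

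In the Notch pathway 5 of 25 genes had SI-open regions, Dtx1 with the highest margin of all. Adam10, the protease that cleaves Notch receptors, had 118 and 80.0 in SI against 18 to 49.5. The receptor gene Notch2 had 149 and 201 against 28.5 to 97.0, the coactivator gene Maml1 70.1 and 54.9 against 15.8 to 40.9, and the target gene Nrarp 72.0 and 68.5 against 16.4 to 54.6. These were low counts apart from Notch2 and Dtx1. Of the 182 regions nearest to the 25 genes, 7 were SI-open (3.85%) and 5 were closed.

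IRF and interferon genes had them at 6 of 19 genes, with 7 of 183 regions (3.83%) and 9 closed. Irf4 had 233 and 132 in SI, 79.7 and 49.8 in LI, 19.4 and 14.9 in BM, 27.4 and 29.0 in lung, and 11.9 and 65.1 in pancreas at a region 18.9 kb upstream (chr13:30730110-30730610). Irf1 had 125 and 159 against 30.1 to 67.7 at a region 39.9 kb from its start. Irf2 had 258 and 196 against 41.7 to 151 at 59.8 kb. The signalling genes Socs1 and Ifnar1 had margins of 0.65 and 0.35. At Irf4 and Irf2 LI exceeded BM, by 1.92 (edgeR adjusted p = 0.021) and 1.50 (adjusted p = 0.0034).

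Receptors for neuropeptides, adrenergic signals and lipid mediators had SI-open regions at 5 of 22 genes, Ret among them. Cysltr2, a receptor gene for cysteinyl leukotrienes, had 144 and 115 in SI, 39.0 and 18 in LI, 51.4 and 30.7 in BM, 14.1 and 19.1 in lung, and 22.6 and 46.2 in pancreas at a region 9.81 kb upstream of its start (chr14:73058675-73059175). Nmur1, the neuromedin U receptor gene of ILC2s, had 137 and 177 against 32.0 to 102 in coding exon 3. Ptgs2, which encodes cyclooxygenase-2, had a promoter region with 348 and 395 in SI, 244 and 209 in LI and 111 to 201 in the other libraries. In this list 7 of 184 regions (3.804%) were SI-open and 21 were closed in SI.

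Retinoid genes had SI-open regions at 3 of 12 genes (5 of 85 regions, 5 closed). They were Hic1, a retinoic acid responsive repressor gene (442 and 715 in SI, 185 to 236 elsewhere), Dhrs3, a retinal reductase gene (519 and 733, 165 to 319), and Cyp26a1, which degrades retinoic acid (63.3 and 54.9, 3.28 to 33.9). SI 2 was the higher library at Hic1 and Dhrs3. Checkpoint and costimulation genes had SI-open regions at 3 of 15 genes (3 of 127 regions, 5 closed). Counts were 134 and 130.2 against 10.9 to 51.2 at Lag3 and 351 and 168 against 14.9 to 115 at Ctla4. The Tigit region, 90.1 kb from its start in intron 7 of Zbtb20, had 226 and 129 against 45.4 to 86.2. Gut homing and residency genes had them at 2 of 20 genes (Ccr7 and Gpr18, 2 of 182 regions with 12 closed), hypoxia and heat shock genes at 2 of 16 (Epas1 and Dnaja1, 2 of 83 regions with 0 closed) and AP-1, Nr4a and Egr genes at 2 of 16 (Batf3 and Fosl1, 2 of 137 regions with 9 closed), with SI counts of 90.9 to 256. Of the 6 surface proteins used in the sorting gates, Thy1 alone had a region in the set, and 21 of the 93 regions nearest to these genes were closed in SI.

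Msi2, which encodes an RNA-binding protein of progenitor cells, had the most SI-open regions, 10 of its 21, over 142 kb of its introns 5 and 6 on chromosome 11. Margins were 0.31 to 1.30, and counts in SI were 632 and 402 at the promoter of 0610039H22Rik, a non-coding transcript within the gene (chr11:88618827-88619441, 145 to 324 elsewhere). The region in intron 6 at chr11:88523815-88524410 had 357 and 487 in SI, 93.2 and 123 in LI, 157 and 153 in BM, 72.9 and 71.6 in lung, and 35.7 and 31.5 in pancreas. BM was the second highest tissue at that region, not LI. The other 11 regions of Msi2 had a median SI difference of 0.81 from the mean of the other tissues, on the log2 scale, and none was closed in SI.

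All 4 regions nearest to Gtsf1l were SI-open, within 19.7 kb of chromosome 2. The tallest of them (chr2:163120521-163121040) had 791 and 1173 in SI, 361 and 356 in LI, 81.5 and 81.9 in BM, 175 and 178 in lung, and 83.2 and 124 in pancreas. These 4 regions lay 13.8 to 33.0 kb from the Gtsf1l start, and 1 of them was at the start of the non-coding Gm11454.

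Pou2af1, which encodes a coactivator of the octamer factors OCT1 and OCT2 best known in B cells, had 4 of 6 regions in the set, 6.17 to 38.5 kb upstream of its start. The region of largest margin (chr9:51177290-51177790) had 104 and 75.3 in SI, 23.7 and 16.3 in LI, 11.6 and 7.44 in BM, 3.14 and 1.09 in lung, and 8.32 and 27.3 in pancreas. The tallest (chr9:51174924-51175442) had 206 and 335 in SI and 8.74 to 83.5 elsewhere. The remaining regions had 101 and 40.7 in SI (1.57 to 30.5 elsewhere) and 120.0 and 153 (1.64 to 76.3), so SI 1 was the higher library at 2 of the 4. Kntc1, a kinetochore gene, had 4 of 5 regions (margins of 0.56 to 1.19), and Ktn1, a kinesin-binding protein gene, 4 of 8 (0.31 to 1.10), the latter 156 to 203 kb from its start.

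Marker genes of ILC2s and of other cells were read at their promoters as summed normalised counts. ILC2 markers (11 of 12 genes with a promoter region, Il17rb without) summed to 5367 and 7371 in SI and 6036 to 9196 elsewhere, and at the Il1rl1 promoters, the gene of ST2, SI was lowest with 56.6 and 59.0 at 1 region and 33.6 and 10.2 at the other. B and plasma cell markers (3 of 10 genes with a promoter region, Cd79b, Ebf1 and Sdc1, and none for Cd79a, Ms4a1, Pax5, Blnk, Cd22 and Jchain) summed to 873 in SI 1 and 324 in SI 2, with 217 to 488 elsewhere. The Cd79b promoter was itself SI-open, with 169.9 and 132 against 27.9 to 81.4. Ebf1 had 312 in SI 1 and 71.9 in SI 2. Among myeloid genes Spi1 had 185 and 42.7 in SI against 7.65 to 77.6 elsewhere, and Cx3cr1 229 and 261 against 385 to 1077. Their part in the results on Pou2af1, on POU matches and on regions higher in SI 1 was not tested.

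Of the intestinal epithelial markers, Elf3 alone had a promoter region (155 and 124 in SI, 73.5 to 154 elsewhere), and the 14 others, Epcam, Vil1 and Cdx2 among them, had none, nor was any of the 15 nearest to an SI-open region. T cell markers (6 of 10 genes) summed to 1219.7 and 1421 in SI against 1158 to 1988, myeloid markers (7 of 12) to 2399 and 1938 against 1890 to 3079.7, and mast cell and basophil markers (2 of 12) to 1014 and 1017 against 1237 to 1796. ILC3 markers (5 of 11) summed to 1353 and 1604 against 1312 to 1914, and ILC1 and NK markers (3 of 11) to 558 and 590.2 against 353 to 615, without a promoter region at Tbx21 or Eomes. The remaining SI-open regions near marker genes were those of Cd3e, Cd68, Ifng, Il13, Nmur1 and Tox2.

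Regions around the set shared its direction in part. Among the 48835 regions outside it, those within 5 kb of an SI-open region (589) had SI above the mean of the other tissues by a median of 0.47 on the log2 scale (quartiles 0.11 and 0.90). The median was 0.22 at 5 to 20 kb, 0.13 at 20 to 50 kb, 0.11 at 50 to 100 kb, 0.05 at 100 to 500 kb and -0.09 beyond 500 kb. Of the SI-open regions themselves, 141 (11.7%) had another within 5 kb and 348 (28.9%) had none within 500 kb. Promoter regions of genes nearest to a distal SI-open region, 668 of them outside the set, had a median difference of 0.08, against 0.01 for 8884 promoters of genes without one. SI-open and SI-closed regions were nearest to the same gene at 76 genes, 7.88% of the 965, and 7.30% of all genes had a closed region.

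**Figure D5:**
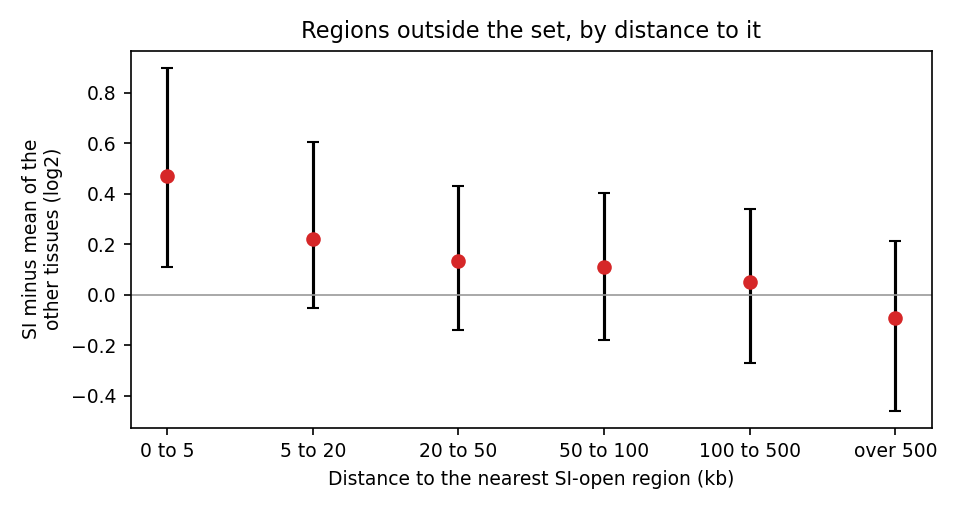
Log2 difference between SI and the mean of the 4 other tissues (vertical axis) for regions outside the SI-open set, grouped by distance to the nearest SI-open region in kb (horizontal axis). Points are medians and bars span the quartiles over regions, and the median falls from 0.47 within 5 kb to -0.09 beyond 500 kb.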

How the data were processed

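Nuclei of sorted ILC2s were tagged with Tn5 and sequenced (ATAC-seq), 10 libraries from 5 tissues. Per the labels and the study's methods, the authors checked reads with FastQC 0.11.9, mapped them to mm10 with Bowtie2 2.2.9, kept uniquely mapped reads, converted files with SAMtools 1.8, called peaks with MACS2 2.1.1, kept peaks found in both replicates, merged them over tissues with HOMER and counted reads with bedtools. The deposited table holds raw counts per merged region, and no normalization had been applied. Whether duplicates and mitochondrial reads were removed, and whether reads were shifted for the Tn5 offset, is not given in the sources used here. The authors compared peaks between tissues with DESeq2, and those comparisons were not used here.

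Counts were divided by median-of-ratios size factors (from the 49981 regions without a 0, and the other 58 held no count in any library), and the rule used a pseudocount of 1 and a margin of 0.3. Regions were placed by their centre against curated RefSeq transcripts of GRCm38.p6, the assembly of mm10, and starts are printed as the table gives them, with no statement of whether they count from 0 or 1. The nearest gene was the protein-coding gene with the closest transcript start, and it was the same gene for 84.6% of the SI-open regions when non-coding transcripts were allowed. Motifs were exact matches on both strands. Tests used edgeR 4.0.16 (R 4.3.3, TMM, quasi-likelihood, regions with at least 1 count, all 10 libraries, tissue as the only term, Benjamini-Hochberg over 49981 regions, threshold 0.05). On simulated counts for LI against BM over 49981 regions, the test recovered 94 of 100 changes of 4-fold and 30 of 100 of 2-fold and called 6 unchanged regions. The changed regions were drawn from the table at large, without regard to the SI-open set. SI-open regions held fewer reads (median 758, against 1555 for all regions), and recovery at them was not simulated apart. With 2 libraries per tissue, p-values measure the spread between these pools of mice. Intervals cover counting error only.

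Named regions were the 12 with the largest margin, up to 6 listed genes per list by margin, the 8 genes nearest to the most SI-open regions, and 5 regions on each side of the margin, and Cd79b, Ebf1, Spi1, Cx3cr1, Il1rl1 and Elf3 as markers and the second Il13 region after their values were seen. Some regions that this rule names are not reported here. The regions, lists and motifs were chosen with earlier results of these data known. Alternatives were another scaling, pseudocount, margin and promoter window, a filter at a mean of 10 counts, DESeq2 1.42.0, a fit on 4 libraries, a replicate block, and leaving out each library.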

Additional observations from a re-analysis of the deposited data

How the results depend on the processing

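The number of SI-open regions was 2331 with total counts as the scaling, 625 and 102 at margins of 0.5 and 1, 3621 at a margin of 0 (of which the 58 regions without any count pass as ties, leaving 3563), and 1235 to 4616 when single libraries were left out, with TMM factors at 1230 and a pseudocount of 5 at 1156. The promoter share was 7.64% with total counts, 3.52%, 2.94% and 10.6% at margins of 0.5, 1 and 0 (the last with the 58 empty regions), 8.06% with a window of 1000 bp on both sides, and 4.81% to 13.4% without single libraries, with 7.61% without BM replicate 1. Leaving out single libraries of a pair gave 181 to 223 called regions between LI and BM, 58 to 221 between LI and lung, 6 to 48 between LI and pancreas, 64 to 159 between BM and lung, 54 to 116 between BM and pancreas and 4 to 61 between lung and pancreas. Every such fit had fewer libraries than the full one.

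With the replicate number as a block (replicate block), the counts were 320, 293, 80, 184, 143 and 88 in the same order, each within 1.5 times the value without it. Deviations of same-numbered libraries correlated between -0.22 and 0.20 over 10 pairs of tissues, and 4 pairs exceeded 0.1, so the numbers were not shown to pair the libraries. The filter at a mean of 10 counts, the fit on 4 libraries, DESeq2 and its size factors, and library size alone kept all 6 counts within 1.5 times, with DESeq2 at 117 for LI and pancreas and 128 for lung and pancreas. Motif shares fell in the central 200 bp, as shorter sequence holds fewer matches. With 2 libraries per tissue, 2-fold differences were often not detectable.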
